A study of Gorilla gorilla gorilla with 14 samples.

Results

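Intermediate progenitors are the short-lived cells through which the stem cells of the developing cortex make most of their neurons. The 9 genes described here, INSM1, PPP1R17, SSTR2, RGS16, BTG2, GADD45G, SMOC1, MFAP4 and TMEM158, are named as markers of these cells and leave out EOMES, the best known one. They were followed as open chromatin, through every region of the deposited count table that has a position in the gorilla genome and lists one of them as its closest gene. This gave 66 regions of 204249. Of these, 8 were promoter regions, listed at most 1000 bp from the gene (of 20663 such regions), and 58 were distal, listed farther away (of 183586). INSM1 had 29 of the 66, PPP1R17 18, TMEM158 6, SMOC1 5, GADD45G 4, RGS16 2, and MFAP4 and SSTR2 1 each. BTG2 had 1 row, with a position in the human genome only and a count of 0 in every library, so accessibility of BTG2 was not analysed here and 8 of the 9 genes could be used. SSTR2 had no promoter row and MFAP4 no distal row.

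The cells came from cerebral organoids, cultured brain-like tissues grown from pluripotent stem cells, of the gorilla induced pluripotent stem cell line GC1 at week 8 of culture. All 14 libraries share this 1 line, and the labels name no gene edit and no treatment. Flow cytometry separated apical radial glia (aRG, the stem cells lining the ventricle, n = 3), basal radial glia (bRG, stem cells detached from it, n = 2), basal intermediate progenitors (bIP, committed to making neurons, n = 5) and their product, neurons labelled as BCL11B-positive (N, n = 4). ATAC-seq, in which a transposase cuts accessible DNA and tags it for sequencing, gave between 12834983 and 26660427 counts per library over the 204249 regions. Levels are CPM, counts scaled to a common library total, and 3 counts, taken as the smallest amount to be read as signal, equal 0.114 to 0.208 CPM depending on the library, a floor that covers counting error only. Library numbers in the labels fall into 2 runs of 7, called the first and second series. In the first are N replicates 1 and 2, bIP replicates 1, 2 and 3, and aRG replicates 1 and 2. The second holds N replicates 3 and 4, bIP replicates 4 and 5, the 2 bRG libraries and aRG replicate 3. It is not stated whether the libraries of a cell type stem from separate cultures, and p-values therefore measure a spread that may be technical. Replicates 1 and 2 of aRG, and likewise of bIP, differed little beyond sampling noise, so each of these pairs was also summed to 1 library, called here the closest pairs summed. The 2 bRG libraries were the next closest pair and were not summed.

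These genes stand for different steps of the path from stem cell to neuron. INSM1 encodes a zinc-finger transcription factor that promotes the formation of basal progenitors, and GADD45G and BTG2 encode proteins tied to growth arrest, BTG2 being known from progenitors about to divide into neurons. PPP1R17 encodes an inhibitor of protein phosphatases, RGS16 a protein that shortens signalling by G proteins, and SSTR2 a receptor for the peptide somatostatin. SMOC1 and MFAP4 encode secreted proteins of the extracellular matrix, and TMEM158 a membrane protein first found as induced by Ras. A promoter can be open before, during or after transcription, and regulatory elements of developmental genes often lie far from them, so promoter and distal regions are described separately.

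Promoters of known radial glia and excitatory neuron genes set the bIP and N libraries apart from those of radial glia. Of 7 radial glia genes, all 7 were lower in bIP than in aRG, among them SOX2, HES1, VIM and NES, where 16.2% of protein-coding genes with 1 promoter each were lower. The radial glia promoters summed to 340 to 370 CPM in aRG, 278 to 307 in bRG, 137 to 222 in bIP and 99.0 to 133 in N. Of 7 excitatory neuron genes, 5 were higher in bIP than in aRG (against 4.85% of the protein-coding genes) and none was lower. The 4 of smallest p were MYT1L, NEUROD2, STMN2 and NEUROD6, and the sums were 96.2 to 127 CPM in aRG, 108 to 110 in bRG, 203 to 351 in bIP and 215 to 331 in N. The sums of bIP and N thus overlapped. In N against bIP, 2 of these 7 genes were higher and 1 lower (7.76% and 18.9% of the protein-coding genes). Between bRG and aRG no gene of either list passed. The promoter of BCL11B, added here because it labels the neurons, did not set N apart (20.3 ± 3.80 CPM in N, SD, n = 4, and 23.6 ± 3.03 in bIP, n = 5).

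Markers of other cells that organoids can hold were also present, and some of them moved with the groups. The 7 GABAergic promoters summed to 103 to 122 CPM in aRG, 101 to 107 in bRG, 93.2 to 137 in bIP and 66.9 to 95.1 in N. In bIP against aRG 1 of these 7, GAD1, was higher and none lower (4.85% and 16.2% of the protein-coding genes). In N against bIP 4 were lower, among them DLX1, DLX2 and DLX6, and 1 higher (18.9% and 7.76% of the protein-coding genes). The 3 mesenchyme promoters, COL1A1, COL1A2 and LUM, were all lower in bIP than in aRG (16.2% of the protein-coding genes were). These 3 summed to 28.4 to 33.9 CPM in aRG, 30.0 to 30.9 in bRG, 13 to 20.3 in bIP and 16.9 to 22.3 in N. For LMX1A and OTX2, of choroid plexus and cortical hem, the sums were 10.4 to 20.1 CPM in aRG, 16.3 to 16.4 in bRG, 6.34 to 11.4 in bIP and 6.74 to 11 in N, and OTX2 was lower in bIP than in aRG. All of these promoter regions were above 0, while TTR, RSPO3, COL3A1 and DCN had no promoter row. Their part in the results below was not tested, and in bulk samples fewer cells of a type and less accessibility per cell cannot be told apart.

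Across the promoter regions, the INSM1, PPP1R17 and SMOC1 promoters were more accessible in bIP than in aRG, and so they were in bIP against bRG. In the step to neurons, 5 promoter regions, those of PPP1R17, MFAP4, RGS16 and GADD45G and the smaller one of TMEM158, fell. A comparison counts as passed at an adjusted p below 0.05 in edgeR's quasi-likelihood test, with the Benjamini-Hochberg adjustment over all 200931 regions tested, and all 66 regions passed the filter on low counts. In bIP against aRG, 3 of 8 promoter regions were higher and 1 lower, where 11.5% of all promoter regions tested were higher and 18.4% lower. In bIP against bRG the counts were again 3 higher and 1 lower, against 10.9% and 10.1% of all promoter regions. In N against bIP none was higher and 5 were lower, against 14.3% and 22.9%. Mean accessibility was highest in bIP for 4 of the 8, against 14.1% of all promoter regions, but in 1 only, that of PPP1R17, did every bIP library exceed every other library (2.84% of all promoter regions did so). These shares describe the 8 regions beside the rest and carry no test.

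**Figure D1:**
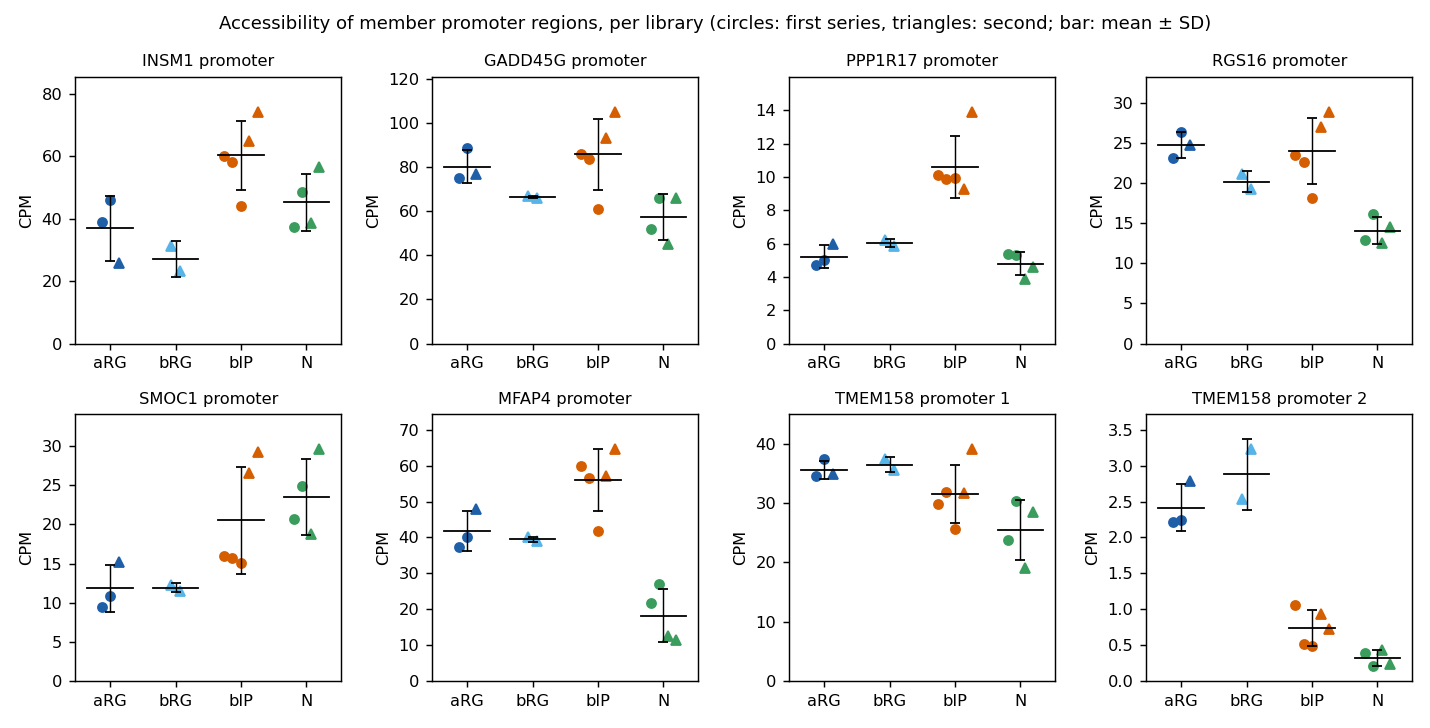
Accessibility (CPM, vertical axes starting at 0) of the 8 promoter regions in each library, by cell type; circles are libraries of the first series and triangles of the second, and the bar with whiskers gives the mean ± SD. PPP1R17 is the panel in which all 5 bIP libraries lie above all others, while in the MFAP4 panel the 4 N libraries lie below all others.

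INSM1, the transcription factor of the set, had its promoter region at chromosome 20, 20355502 to 20358974 (all positions are of the gorilla build gorGor6, counted from 1). It stood at 38.8, 46.1 and 25.7 CPM in the aRG libraries, 31.1 and 23.1 CPM in bRG, 60.2, 58.2, 43.9, 64.9 and 74.2 CPM in bIP and 37.4, 48.4, 38.5 and 56.6 CPM in N. The bIP libraries were the highest as a group, though bIP replicate 3 lay within the range of aRG, and N overlapped both aRG and bIP. INSM1 was higher in bIP than in aRG by log2 0.70 ± 0.21 (SE, adjusted p = 0.008) and than in bRG by 1.19 ± 0.26 (adjusted p = 0.00073), and N exceeded bRG by 0.77 ± 0.26 (adjusted p = 0.014). Between N and bIP the difference was −0.42 ± 0.19 (adjusted p = 0.06), and between N and aRG 0.28 ± 0.22 (adjusted p = 0.27). The latter passed in the second series alone (0.88, adjusted p = 0.042), among regions with at least 10 CPM in 2 libraries (0.56, adjusted p = 0.0056) and with an offset that depends on abundance (loess; 0.79, adjusted p = 4.3e-05). The excess over aRG rested on single libraries: without aRG replicate 3 it was 0.39 (adjusted p = 0.19), and without bIP replicate 4 it was 0.54 (adjusted p = 0.064). In the first series alone it was 0.37 (adjusted p = 0.092), in the second 1.43 (adjusted p = 0.0042), and with the closest pairs summed 0.68 (adjusted p = 0.063). The excess of N over bRG was 0.57 (adjusted p = 0.19) without bRG replicate 2 and 0.46 (adjusted p = 0.2) without N replicate 4, and 0.63 (adjusted p = 0.076) with the closest pairs summed. The lower level in N than in bIP passed without bIP replicate 3 (−0.51, adjusted p = 0.019), without N replicate 2 (−0.48, adjusted p = 0.049) or without N replicate 4 (−0.57, adjusted p = 0.032).

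GADD45G, whose protein responds to stress and is linked to cell cycle exit, had the most counts of the promoter regions, at chromosome 9, 60723692 to 60727140. It stood at 75.1, 88.7 and 76.9 CPM in aRG, 66.7 and 66.1 in bRG, 85.9, 83.8, 60.8, 93 and 105 in bIP, and 51.8, 66, 45.1 and 65.9 in N. Here the progenitor types overlapped, since bIP replicate 3 was below both bRG libraries. GADD45G accessibility was lower in N than in bIP by log2 −0.59 ± 0.17 (adjusted p = 0.004) and than in aRG by −0.51 ± 0.19 (adjusted p = 0.02), and the second of these missed the threshold without N replicate 1 (−0.47, adjusted p = 0.066). Within series, the difference from bIP was −0.38 in the first (adjusted p = 0.097), and that from aRG −0.45 in the first (adjusted p = 0.054) and −0.48 in the second (adjusted p = 0.25). Between bIP and aRG the difference was 0.08, with a 95% interval of −0.29 to 0.45. With the loess offset, which moved the median of all promoter regions from −0.26 to 0.10 in N against aRG and from −0.15 to −0.06 in bIP against aRG, the GADD45G promoter differed by 0.01 in the first of these comparisons (adjusted p = 0.85) and by 0.37 in the second (adjusted p = 1.4e-05). Between N and bIP it was then −0.36 (adjusted p = 7.1e-06), and −0.30 (adjusted p = 0.0021) among regions with at least 10 CPM in 2 libraries.

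PPP1R17, the phosphatase inhibitor, had the promoter region that followed the sorted intermediate progenitors most closely, although it was a weak one. At chromosome 7, 32312833 to 32313934, it stood at 4.70, 4.99 and 5.98 CPM in aRG, 6.22 and 5.86 in bRG, 10.1, 9.90, 9.92, 9.28 and 13.9 in bIP, and 5.38, 5.30, 3.89 and 4.6 in N. The bIP libraries overlapped with no other group. PPP1R17 rose in bIP against aRG by log2 1.02 ± 0.20 (adjusted p = 0.00014; 0.95, adjusted p = 0.067, in the second series alone) and against bRG by 0.85 ± 0.24 (adjusted p = 0.0071), and fell in N against bIP by −1.15 ± 0.18 (adjusted p = 7e-06). N differed from aRG by −0.13, with a 95% interval of −0.56 to 0.30. The excess of bIP over bRG depended on single libraries: it was 0.89 (adjusted p = 0.055) without bRG replicate 1, 0.81 (adjusted p = 0.081) without bRG replicate 2 and 0.64 (adjusted p = 0.051) without bIP replicate 5.

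RGS16, which acts on G protein signalling, showed one step only, between progenitors and neurons. Its promoter region, at chromosome 1, 153314166 to 153315537, stood at 23.2, 26.4 and 24.8 CPM in aRG, 21.1 and 19.3 in bRG, 23.5, 22.6, 18.2, 27.0 and 28.9 in bIP, and 12.9, 16.2, 12.6 and 14.6 in N. All 4 N libraries were below all progenitor libraries, among which the groups overlapped or lay close. RGS16 was lower in N than in bIP by log2 −0.78 ± 0.16 (adjusted p = 0.00015) and than in aRG by −0.84 ± 0.18 (adjusted p = 0.00017), which became −0.41 (adjusted p = 0.00024) and −0.39 (adjusted p = 0.00084) with the loess offset. The difference from bRG, −0.46 ± 0.21, did not pass (adjusted p = 0.066), and did so without N replicate 2 (−0.53, adjusted p = 0.025) or N replicate 3 (−0.50, adjusted p = 0.047). Between bIP and aRG it was −0.06, with an interval of −0.40 to 0.29.

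SMOC1, a secreted calcium-binding protein, had a promoter region that was higher in neurons than in both kinds of radial glia. At chromosome 14, 50593729 to 50595730, it stood at 9.45, 10.9 and 15.2 CPM in aRG, 12.3 and 11.5 in bRG, 15.9, 15.7, 15.1, 26.6 and 29.2 in bIP, and 20.7, 24.9, 18.8 and 29.6 in N. Within bIP the 3 libraries of the first series lay at 15.1 to 15.9 CPM, and the 2 of the second were the high ones. SMOC1 rose in bIP against aRG by log2 0.74 ± 0.19 (adjusted p = 0.0027; 0.61, adjusted p = 0.069, with the closest pairs summed, and 0.87, adjusted p = 0.066, in the second series alone) and against bRG by 1.05 ± 0.24 (adjusted p = 0.00099), and N exceeded aRG by 0.94 ± 0.20 (adjusted p = 0.00021; 0.66, adjusted p = 0.12, in the second series alone) and bRG by 1.25 ± 0.25 (adjusted p = 0.00011). Between N and bIP it was 0.20 ± 0.17 (adjusted p = 0.33) over both series and 0.55 in the first series alone (adjusted p = 0.0037). With the loess offset the SMOC1 promoter differed by 0.57 between N and bIP (adjusted p = 5.2e-05), where the median of all promoter regions moved from −0.13 to 0.14.

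MFAP4, a glycoprotein that binds elastic fibres, was the most accessible of these promoters per kilobase in bIP and lost most in neurons among those listed at 0 bp. At chromosome 5, 56983498 to 56985252, it stood at 37.2, 40.2 and 48.0 CPM in aRG, 40.0 and 38.9 in bRG, 59.9, 56.6, 41.7, 57.0 and 64.6 in bIP, and 21.6, 27.0, 12.6 and 11.5 in N. No N library reached the lowest progenitor library, and the 2 of the second series were the lowest. MFAP4 fell in N against bIP by log2 −1.64 ± 0.21 (adjusted p = 2.9e-07), against aRG by −1.21 ± 0.23 (adjusted p = 4.2e-05) and against bRG by −1.23 ± 0.28 (adjusted p = 0.00045). The fall against aRG was −0.65 in the first series (adjusted p = 0.0044), −2.0 in the second (adjusted p = 1.2e-05) and −0.74 with the loess offset (adjusted p = 0.00031). Its excess in bIP over aRG, 0.43 ± 0.22, did not pass (adjusted p = 0.11), but did without aRG replicate 3 (0.68, adjusted p = 0.046), without bIP replicate 3 (0.54, adjusted p = 0.039) and with the loess offset (0.59, adjusted p = 0.0026).

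TMEM158 had 2 promoter regions. The larger, at chromosome 3, 45262666 to 45264919, stood at 34.5, 37.4 and 34.9 CPM in aRG, 37.4 and 35.6 in bRG, 29.8, 31.8, 25.6, 31.7 and 39.1 in bIP, and 23.8, 30.4, 19.0 and 28.5 in N. Although TMEM158 is listed as a marker, no rise of this promoter in bIP was detected: the difference from aRG was log2 −0.17 (interval −0.53 to 0.18) and from bRG −0.18 (interval −0.62 to 0.26). Among regions with at least 10 CPM in 2 libraries this promoter was lower in bIP than in aRG (−0.19, adjusted p = 0.025) and bRG (−0.38, adjusted p = 0.0016). The medians of all promoter regions were then −0.19 and −0.12. With the loess offset it was lower in bIP than in bRG (−0.28, adjusted p = 0.011). In the main fit only N against aRG passed (−0.49 ± 0.18, adjusted p = 0.021), and not without N replicate 1 (−0.46, adjusted p = 0.061) or with the loess offset (−0.02, adjusted p = 0.79). In the first series alone it was −0.38 (adjusted p = 0.067) and in the second −0.56 (adjusted p = 0.16). N against bIP was −0.32 ± 0.16 (adjusted p = 0.1), and passed without bIP replicate 3 (−0.38, adjusted p = 0.043) or N replicate 2 (−0.44, adjusted p = 0.028). N against bRG was −0.50 ± 0.22 (adjusted p = 0.053), and passed without N replicate 2 (−0.58, adjusted p = 0.018) or N replicate 4 (−0.70, adjusted p = 0.029).

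The smaller TMEM158 region, 223 bp wide and listed 905 bp from the gene (chromosome 3, 45265070 to 45265292), fell stepwise along the lineage. It stood at 2.21, 2.25 and 2.79 CPM in aRG, 2.53 and 3.23 in bRG, 1.06, 0.518, 0.486, 0.928 and 0.725 in bIP, and 0.390, 0.204, 0.432 and 0.235 in N. Radial glia, bIP and N formed 3 ranges without overlap, the last of them resting on 10, 3, 9 and 5 counts. This TMEM158 region fell in bIP by log2 −1.66 ± 0.28 against aRG (adjusted p = 2.7e-05) and by −1.77 ± 0.35 against bRG (adjusted p = 0.0002), and in N against bIP by a further −1.25 ± 0.35 (adjusted p = 0.0034). It was touched by no peak of any cell type.

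Compared per kilobase of region, which removes the effect of width, the order of the promoters in bIP was MFAP4 (31.9 CPM per kb), GADD45G (24.9), RGS16 (17.5), INSM1 (17.4), the larger TMEM158 region (14), SMOC1 (10.2) and PPP1R17 (9.64), with the smaller TMEM158 region last at 3.33 CPM per kb. In aRG the levels ran from 23.8 CPM per kb for MFAP4 to 4.74 for PPP1R17. The PPP1R17 promoter was thus the least open of those listed at 0 bp in both cell types.

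**Figure D2:**
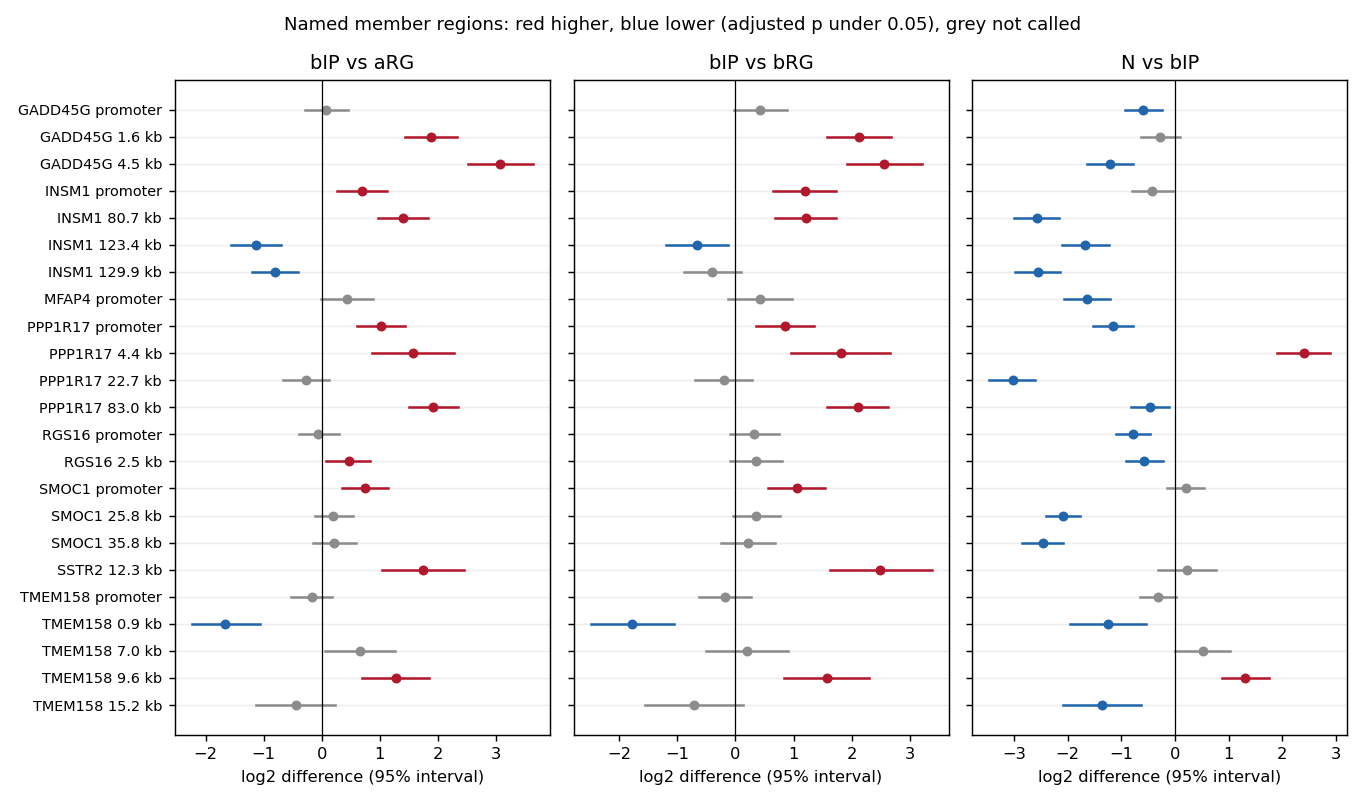
Log2 differences of 23 member regions (rows; distance listed from the gene) in 3 comparisons, as points with 95% intervals; red is higher and blue lower at an adjusted p under 0.05, and grey did not pass. The distal INSM1 and PPP1R17 regions include some that rise and some that fall in the same comparison, as the 80.7 kb and 123.4 kb regions of INSM1 do in bIP against aRG.

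Distal regions made up most of the set, and 31 of 58 were more accessible in intermediate progenitors than in aRG. Here 5 were lower, with a median log2 difference of 0.69, where 25.5% of all distal regions tested were higher, 21.2% lower and the median was 0.08. In bIP against bRG, 26 were higher and 2 lower (median 0.60), against 21.5%, 16.8% and a median of 0.03. In N against bIP, 7 were higher and 35 lower (median −0.75), against 30.4%, 26.8% and a median of 0.02. In N against aRG, 22 were higher and 22 lower, against 39.4% and 28.5%, and in N against bRG 15 were higher and 19 lower, against 34% and 26.3%. Mean accessibility was highest in bIP for 32 of the 58 (55.2%), against 21.4% of all distal regions, and in 11 (19.0%) every bIP library exceeded every other library, against 6.64%. INSM1 supplied 19 of these 32 regions and 8 of these 11, so the counts over the set are mostly counts of that locus, whose regions share a neighbourhood and are not independent. Over promoter and distal regions together, 40 of 66 passed in bIP against aRG in either direction (44.9% of all regions did), and 20 in the second series alone, while 32 passed in bIP against bRG (36.5% of all regions), and 21 without bRG replicate 2.

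The distal regions listed under INSM1 all lay on 1 side of its promoter, at higher coordinates on chromosome 20, 7264 to 140699 bp away. In RefSeq's gene list for a different gorilla assembly, the next protein-coding gene on this side is RALGAPA2 and on the other side CFAP61. The closest gene is the table's own listing, so which gene a region serves is not established, and exons or introns were not examined. Of the 28 regions, 17 were higher and 4 lower in bIP than in aRG (25.5% and 21.2% of all distal regions), and 22 were lower and 1 higher in N than in bIP (26.8% and 30.4%). They are given in 3 bands of distance that were set after the values had been seen, so a difference between bands carries no test. Of all distal regions, 21.4% were highest in bIP. In the nearest 7 regions (7264 to 44548 bp), all of which were highest in bIP, summed accessibility was 95 ± 13.2 CPM in bIP (SD, n = 5), against 46.0 ± 0.798 in aRG (n = 3), 43.9 ± 1.57 in bRG (n = 2) and 44.5 ± 5.35 in N (n = 4). In the next 11 (58808 to 94569 bp) 10 were highest in bIP, and the sums were 115 ± 11.3 CPM in bIP, 79.8 ± 3.49 in aRG, 73.9 ± 6.14 in bRG and 39.0 ± 6.03 in N. In the farthest 10 (95781 to 140699 bp) 7 were highest in aRG, and the sums were 89.1 ± 16.9 CPM in bIP, 154 ± 38.5 in aRG, 102 ± 17.6 in bRG and 28.0 ± 1.78 in N. In this farthest band 4 regions were lower and 3 higher in bIP than in aRG, the latter at 101331, 103274 and 104413 bp with log2 differences of 1.34, 1.96 and 0.84. The aRG sum came mostly from 3 regions, with means of 31.5, 61.8 and 46.9 CPM, and was 173 and 181 CPM in the first-series libraries but 110 in aRG replicate 3, against 63.0 to 103 in bIP.

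**Figure D3:**
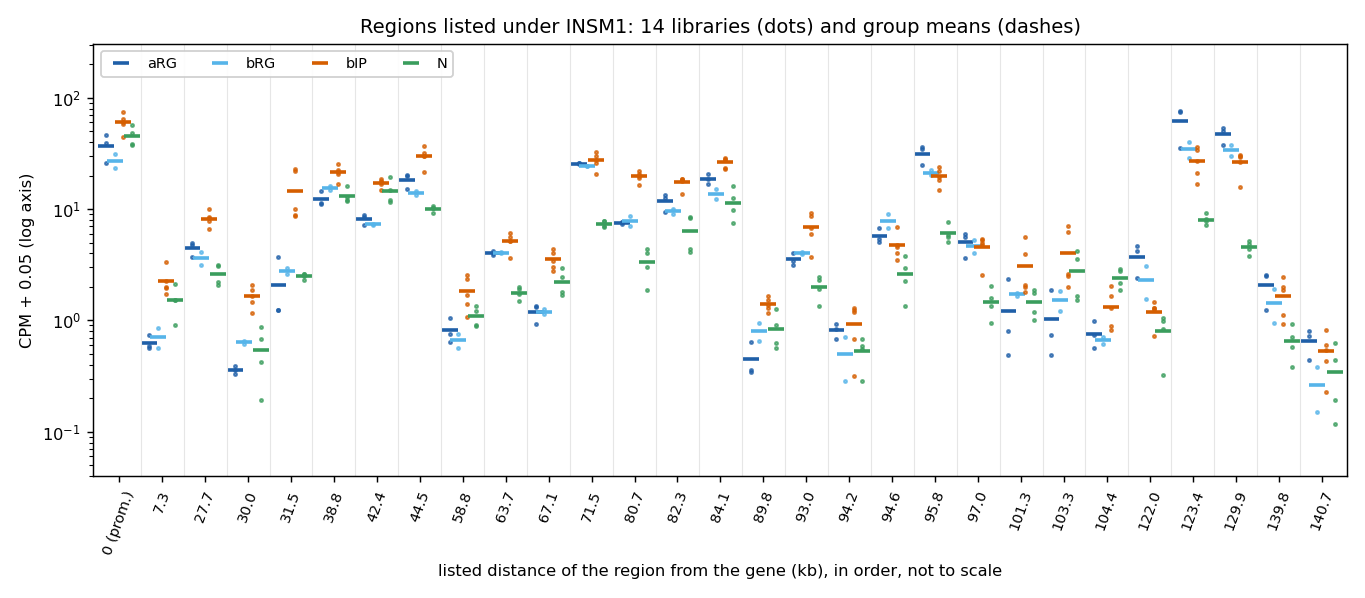
Accessibility (CPM + 0.05, log axis) of the INSM1 promoter and its 28 distal regions, in order of listed distance (horizontal axis, kb, not to scale), with 1 dot per library and a dash for each group mean. The orange bIP dashes are the highest in all regions from 7.3 to 44.5 kb, whereas at 123.4 and 129.9 kb the dark blue aRG dashes are.

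Single INSM1 regions differed in their course. The region 80745 bp away (chromosome 20, 20437387 to 20437908) stood at 7.63, 7.61 and 7.31 CPM in aRG, 8.59 and 6.93 in bRG, 21.8, 19.8, 16.4, 20.7 and 19.0 in bIP, and 4.33, 3.94, 2.98 and 1.83 in N. It was open in radial glia, highest in every bIP library and lowest in every N library. This INSM1 region rose in bIP against aRG by log2 1.4 ± 0.21 (adjusted p = 4.2e-06) and fell in N against bIP by −2.58 ± 0.20 (adjusted p = 2e-10).

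A region 31517 bp from INSM1, picked after its values were seen, had the largest rise in bIP at this locus (chromosome 20, 20388207 to 20389078). It stood at 1.19, 1.19 and 3.68 CPM in aRG, 2.93 and 2.58 in bRG, 10.0, 8.80, 8.67, 22.1 and 22.9 in bIP, and 2.57, 2.45, 2.55 and 2.25 in N. The 2 bIP libraries of the second series were above those of the first, as was aRG replicate 3 above the other aRG libraries, and within each series bIP was above all other groups. The INSM1 region was higher in bIP by log2 2.80 ± 0.27 against aRG (adjusted p = 9.4e-09) and by 2.84 ± 0.33 against bRG (adjusted p = 3.5e-07), and lower in N than in bIP by −2.5 ± 0.24 (adjusted p = 3.6e-09). Among the deposited peak sets, 1 per cell type, only that of bIP touched it, with the authors' fold enrichment of 10.0.

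The regions 123377 and 129929 bp from INSM1 had the most counts of its distal regions and the opposite order. The first (chromosome 20, 20482813 to 20484604) stood at 73.8, 76.0 and 35.5 CPM in aRG, 40.1 and 28.9 in bRG, 36.1, 33.7, 20.9, 26.8 and 16.7 in bIP, and 9.08, 7.07, 8.12 and 7.70 in N. The 2 aRG libraries of the first series were well above aRG replicate 3, which lay in the range of bRG and bIP. This INSM1 region was lower in bIP than in aRG by log2 −1.13 ± 0.21 (adjusted p = 6.5e-05), yet by −0.71 in the second series alone (adjusted p = 0.13), and lower in N than in bIP by −1.67 ± 0.21 (adjusted p = 2.7e-07). Its lower level in bIP than in bRG (−0.66 ± 0.26, adjusted p = 0.049) was lost without bRG replicate 1 (−0.40, adjusted p = 0.45), bRG replicate 2 (−0.88, adjusted p = 0.05), bIP replicate 2 (−0.69, adjusted p = 0.054), bIP replicate 3 (−0.60, adjusted p = 0.055) or bIP replicate 5 (−0.51, adjusted p = 0.17), and in the second series alone (−0.66, adjusted p = 0.066).

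The second of this pair (chromosome 20, 20489363 to 20490646) stood at 50.0, 53.3 and 37.6 CPM in aRG, 37.4 and 30.2 in bRG, 30.6, 29.3, 15.8, 30.1 and 26.4 in bIP, and 4.37, 5.10, 4.76 and 3.75 in N. It declined from aRG to N without overlap between aRG and bIP or between bIP and N. The INSM1 region was lower in bIP than in aRG by log2 −0.81 ± 0.19 (adjusted p = 0.0011; −0.41, adjusted p = 0.4, in the second series alone) and lower in N than in bIP by −2.56 ± 0.20 (adjusted p = 2.3e-10).

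PPP1R17 had 17 distal regions, 12 at higher and 5 at lower coordinates than its promoter on chromosome 7, 3733 to 97666 bp away. In the same RefSeq list its protein-coding neighbours are PDE1C and LSM5. In N against aRG 9 of these 17 PPP1R17 regions were higher and 3 lower (39.4% and 28.5% of all distal regions), and in N against bIP 5 were higher and 6 lower, near the 30.4% and 26.8% of all distal regions. In bIP against aRG 7 were higher and 1 lower (25.5% and 21.2%). The bands of distance were again set after the values had been seen, so a difference between them carries no test. The 4 regions within 6792 bp summed to 27.6 ± 6.61 CPM in N (SD, n = 4), 19.9 ± 5.88 in bIP (n = 5), 4.92 ± 0.334 in bRG (n = 2) and 3.51 ± 1.34 in aRG (n = 3). The 5 regions from 15280 to 38401 bp summed to 7.95 ± 1.45 CPM in N, 36.7 ± 8.53 in bIP, 47.0 ± 1.01 in bRG and 45.8 ± 3.70 in aRG. The 8 from 48655 to 97666 bp summed to 90.3 ± 15.5 CPM in N, 106 ± 11.6 in bIP, 41.0 ± 0.830 in bRG and 40.8 ± 5.73 in aRG.

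**Figure D4:**
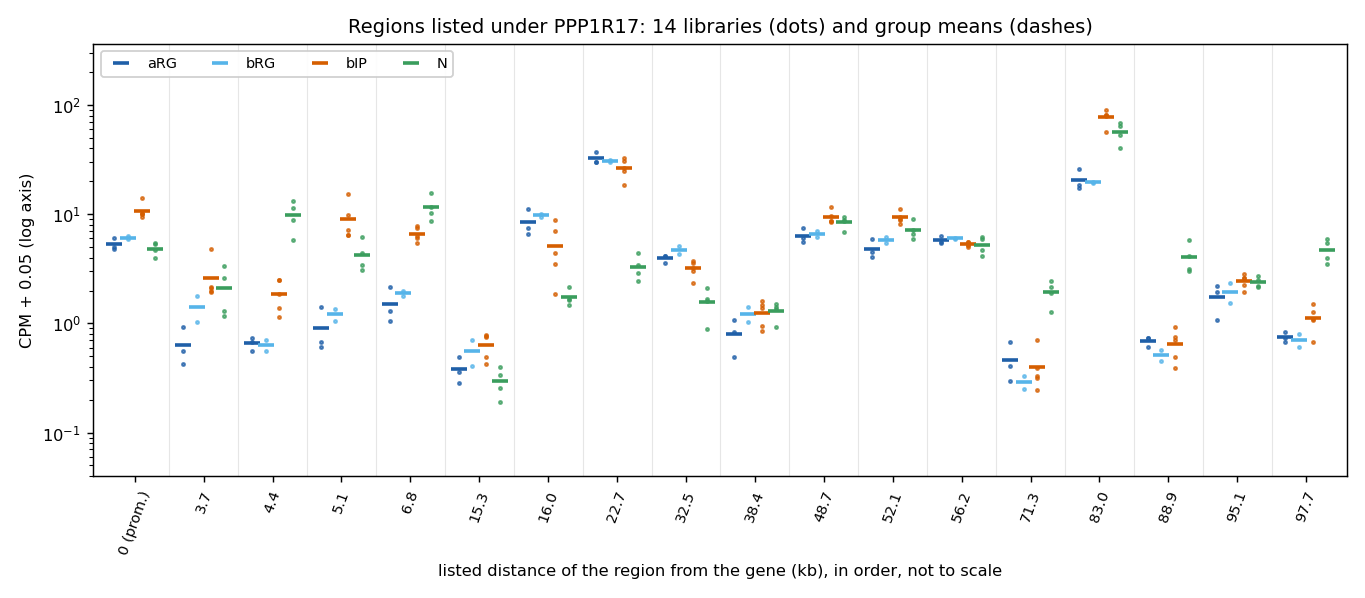
Accessibility (CPM + 0.05, log axis) of the PPP1R17 promoter and its 17 distal regions, in order of listed distance (horizontal axis, kb, not to scale), with 1 dot per library and a dash for each group mean. The green N dashes are the highest at 4.4, 6.8, 71.3, 88.9 and 97.7 kb and the lowest at 22.7 kb, and the orange bIP dashes are the highest at the promoter, 5.1 kb and 83.0 kb.

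The most accessible distal PPP1R17 region was 83006 bp away (chromosome 7, 32227188 to 32229596). It stood at 17.2, 18.6 and 26.0 CPM in aRG, 19.2 and 19.8 in bRG, 81.2, 81.7, 56.2, 79.6 and 90.5 in bIP, and 63.9, 53.5, 40.7 and 68.7 in N. Both bIP and N lay above all radial glia libraries, and they overlapped with each other. The PPP1R17 region rose in bIP against aRG by log2 1.92 ± 0.20 (adjusted p = 3e-08) and against bRG by 2.11 ± 0.25 (adjusted p = 6.1e-07). Its lower level in N than in bIP (−0.47 ± 0.17, adjusted p = 0.025) was −0.43 without bIP replicate 1 or bIP replicate 2 (adjusted p = 0.063 each) and −0.43 without bIP replicate 5 (adjusted p = 0.052). With the loess offset it was −0.18 (adjusted p = 0.14), with the closest pairs summed −0.47 (adjusted p = 0.067), in the first series alone −0.30 (adjusted p = 0.17) and in the second −0.64 (adjusted p = 0.062).

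The region 22748 bp from PPP1R17 (chromosome 7, 32335798 to 32336886) behaved in the opposite way. It stood at 30.2, 37.2 and 29.9 CPM in aRG, 31.6 and 30.1 in bRG, 24.9, 26.6, 18.6, 30.9 and 32.7 in bIP, and 4.37, 3.40, 2.83 and 2.39 in N. The 3 progenitor types overlapped, and every N library was far below them. This PPP1R17 region fell in N against bIP by log2 −3.03 ± 0.21 (adjusted p = 3.7e-11), the largest fall of the 66 regions in that comparison, and differed by −0.28 between bIP and aRG (interval −0.67 to 0.12). In the first series alone that difference passed (−0.51, adjusted p = 0.013).

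The region 4418 bp from PPP1R17 (chromosome 7, 32307961 to 32308648) was weak outside neurons. It stood at 0.514, 0.624 and 0.686 CPM in aRG, 0.506 and 0.656 in bRG, 1.82, 1.10, 1.32, 2.43 and 2.42 in bIP, and 11.4, 8.76, 5.81 and 13.1 in N. Radial glia, bIP and N formed 3 ranges without overlap. The PPP1R17 region rose in bIP against aRG by log2 1.57 ± 0.34 (adjusted p = 0.00045) and in N against bIP by 2.41 ± 0.24 (adjusted p = 6.7e-09), and of the 4 peak sets only that of N touched it.

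Its neighbour 5106 bp from PPP1R17 lay on the other side of the promoter (chromosome 7, 32318176 to 32319038) and was named after its values were seen. This neighbour was highest in bIP and also open in N. The peak sets of bIP and N touched it, and those of aRG and bRG did not. It stood at 0.553, 0.624 and 1.37 CPM in aRG, 1.01 and 1.31 in bRG, 7.19, 6.34, 6.45, 9.86 and 15.2 in bIP, and 6.12, 4.35, 3.03 and 3.38 in N. Every bIP library was above every N library, and every N library above every radial glia library. The rise in bIP against aRG, log2 3.37 ± 0.35 (adjusted p = 2.1e-08), was the largest among the 66 regions, and this PPP1R17 region was lower in N than in bIP by −1.05 ± 0.26 (adjusted p = 0.0013), but by −0.31 in the first series alone (adjusted p = 0.16) and −1.97 in the second (adjusted p = 1.5e-05).

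The region 88931 bp away, also named after the fact (chromosome 7, 32401911 to 32402697), was also weak outside neurons. It lay between 0.338 and 0.870 CPM in all 10 libraries of the other cell types and stood at 4.09, 3.13, 2.98 and 5.77 CPM in N. The PPP1R17 region was higher in N than in bIP by log2 2.75 ± 0.29 (adjusted p = 1.3e-08), the largest rise of the set in that comparison, and differed by −0.08 between bIP and aRG (interval −0.84 to 0.68).

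GADD45G had 3 distal regions, all at higher coordinates on chromosome 9. All 3 were higher in bIP than in aRG and than in bRG (25.5% and 21.5% of all distal regions were). The GADD45G promoter passed in neither comparison, but with the loess offset it was higher in bIP by 0.37 in both. The adjusted p was then 1.4e-05 against aRG and 0.00024 against bRG. In a fit of the 2 groups alone the promoter also passed against bRG (0.57, adjusted p = 0.01). The region 1565 bp away (60727210 to 60728272) stood at 3.87, 5.36 and 6.08 CPM in aRG, 4.35 and 4.83 in bRG, 17.5, 17, 15.3, 18.4 and 26.3 in bIP, and 17.5, 17.1, 12.3 and 15.8 in N. It directly follows the promoter region. Neurons stayed in the range of bIP or just below it. This GADD45G region rose in bIP against aRG by log2 1.88 ± 0.21 (adjusted p = 8.6e-08) and differed by −0.27 between N and bIP (interval −0.63 to 0.10), with −0.67 (adjusted p = 0.046) in the second series alone.

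The second GADD45G region, 4537 bp away (chromosome 9, 60730175 to 60730661), stood at 1.03, 1.25 and 1.77 CPM in aRG, 1.82 and 1.97 in bRG, 10.8, 11.3, 9.16, 11.5 and 13.7 in bIP, and 5.77, 6.52, 3.75 and 3.43 in N. The 3 ranges of radial glia, N and bIP did not overlap. The GADD45G region rose in bIP by log2 3.07 ± 0.27 against aRG (adjusted p = 2.3e-09) and by 2.56 ± 0.32 against bRG (adjusted p = 8.1e-07), and was lower in N than in bIP by −1.22 ± 0.21 (adjusted p = 2e-05; −0.76, adjusted p = 0.00034, in the first series alone). The peak sets of bIP and N touched both of these regions, and those of aRG and bRG neither. The third, 14020 bp away, was weak throughout, with means from 0.388 CPM in bRG to 1.14 in bIP.

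SMOC1 had 4 distal regions, all at lower coordinates on chromosome 14, and its strongest 2 went against its promoter. The region 35824 bp away (50556156 to 50558296) stood at 25.8, 26.3 and 23.5 CPM in aRG, 24.8 and 22.2 in bRG, 31.3, 31.1, 20.7, 34.2 and 27.0 in bIP, and 5.89, 6.59, 4.52 and 3.99 in N. The region 25839 bp away (50566810 to 50568299) stood at 21.8, 22.3 and 23.9 CPM in aRG, 22.0 and 24.2 in bRG, 26.0, 25.3, 20.6, 31.1 and 29.9 in bIP, and 5.73, 5.78, 6.29 and 7.65 in N. In both, progenitors of all 3 types overlapped and neurons lay far below, whereas the SMOC1 promoter was higher in N than in radial glia. These SMOC1 regions fell in N against bIP by log2 −2.47 ± 0.18 (adjusted p = 1.1e-10) and −2.09 ± 0.16 (adjusted p = 1.1e-10), and between bIP and aRG they differed by 0.21 (interval −0.16 to 0.59) and 0.20 (interval −0.12 to 0.53). With the loess offset the second of these passed in bIP against aRG (0.25, adjusted p = 0.036).

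SSTR2, the somatostatin receptor, was represented by a single weak region 12330 bp away (chromosome 5, 8595467 to 8596391). It stood at 0.672, 0.187 and 0.883 CPM in aRG, 0.809 and 0.281 in bRG, 1.29, 1.42, 2.08, 2.61 and 3.38 in bIP, and 1.75, 1.70, 3.46 and 3.94 in N. The value of aRG replicate 2 equals 3 counts. All bIP and N libraries were above all radial glia libraries. Libraries of the second series were the higher ones in bIP and in N. The SSTR2 region rose in bIP against aRG by log2 1.74 ± 0.34 (adjusted p = 0.00015) and against bRG by 2.49 ± 0.43 (adjusted p = 4.3e-05), and differed by 0.23 between N and bIP (interval −0.31 to 0.76). Only the bIP peak set touched it.

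TMEM158 had 4 distal regions, all at lower coordinates on chromosome 3, and in 3 of them the mean was highest in N. In N against bIP, however, only 1 of the 4 was higher and 1 was lower (30.4% and 26.8% of all distal regions). The region 9581 bp away (45253526 to 45254573) stood at 0.711, 1.06 and 1.27 CPM in aRG, 0.809 and 0.703 in bRG, 2.38, 2.33, 2.71, 2.03 and 2.66 in bIP, and 7.33, 6.86, 3.84 and 5.91 in N. Radial glia, bIP and N again formed 3 ranges without overlap, rising toward N. This TMEM158 region rose in bIP against aRG by log2 1.27 ± 0.28 (adjusted p = 0.00046) and in N against bIP by 1.31 ± 0.21 (adjusted p = 1e-05). In the second series alone the first of these was 0.87 (adjusted p = 0.21).

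The TMEM158 region 15238 bp away (chromosome 3, 45248751 to 45249423) went the other way, from 2.65, 2.5 and 3.19 CPM in aRG and 2.53 and 2.95 in bRG to 2.42, 1.94, 1.94, 1.59 and 2.17 in bIP and 1.05, 1.63, 0.528 and 0.0938 in N. N replicate 4 was below the floor of 3 counts. It was lower in N than in bIP by log2 −1.36 ± 0.35 (adjusted p = 0.0019), by −0.72 in the first series (adjusted p = 0.029) and by −2.59 in the second (adjusted p = 0.00018). The region 6954 bp away ranged from 0.870 CPM in aRG to 4.14 in N, and TMEM158 was higher there in N than in aRG by 1.18 ± 0.30 (adjusted p = 0.0012; 0.37, adjusted p = 0.51, in the second series alone), while its difference between bIP and aRG (0.66 ± 0.29, adjusted p = 0.071) passed without aRG replicate 3 (1.11, adjusted p = 0.013) or without bIP replicate 1 (0.78, adjusted p = 0.04). Between N and bIP it was 0.52 ± 0.25 (adjusted p = 0.077), and passed without N replicate 3 (0.63, adjusted p = 0.038).

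The 1 distal region of RGS16, 2473 bp away (chromosome 1, 153311972 to 153312572), stood at 4.15, 4.68 and 5.49 CPM in aRG, 6.42 and 6.09 in bRG, 6.21, 5.50, 5.41, 8.44 and 8.02 in bIP, and 4.05, 3.94, 5.24 and 5.40 in N. The groups overlapped, apart from N lying below all bIP libraries. Of the distal regions named here, RGS16 had the smallest rise in bIP against aRG to pass, log2 0.46 ± 0.18 (adjusted p = 0.043), and this call was lost without any 1 library of aRG or bIP other than bIP replicate 3, with adjusted p between 0.056 and 0.26, and with the closest pairs summed (0.33, adjusted p = 0.3). In the first series alone it was 0.40 (adjusted p = 0.065) and in the second 0.58 (adjusted p = 0.28). The lower level of N against bIP, −0.57 ± 0.17 (adjusted p = 0.0051), was −0.22 with the loess offset (adjusted p = 0.21) and −0.64 in the second series alone (adjusted p = 0.075).

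The deposited peak sets, called by the authors once per cell type, have no replicates. A bIP peak touched 31 of 58 (53.4%), an N peak 29 (50.0%), an aRG peak 26 (44.8%) and a bRG peak 23 (39.7%). Of all distal regions outside chromosomes 2A and 2B, which the peak sets name no peaks on, 31.9%, 33.5%, 32.7% and 32.1% were touched by these sets in the same order. Each of the 4 sets touched 7 of the 8 promoter regions, those listed at 0 bp. Of all promoter regions outside chromosomes 2A and 2B, 71.7% were touched by the bIP set, 69.8% by N, 72.2% by aRG and 72.6% by bRG. The bIP set alone touched 4 distal regions, 3 of INSM1 and the 1 of SSTR2 (6.9% of 58, against 5.21% of all distal regions), the N set alone touched 6, 3 of PPP1R17 and 3 of TMEM158 (10.3%, against 11.5%), and the aRG set alone 1, of INSM1 (1.72%, against 4.57%). All 66 regions have positions in the human and the chimpanzee genome in the table, as do 97.4% of all regions.

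**Figure D5:**
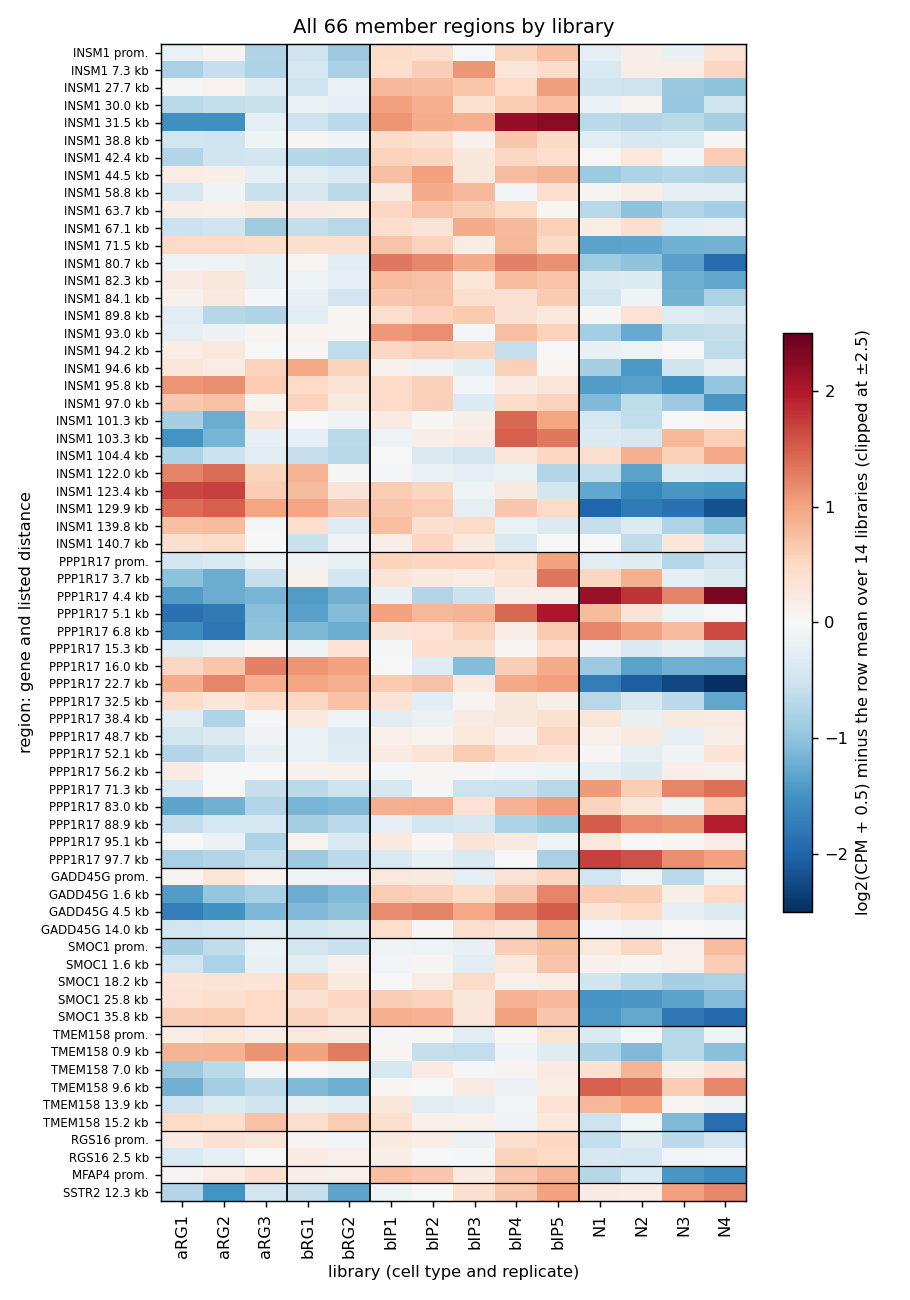
All 66 regions (rows, by gene and listed distance) in the 14 libraries (columns), coloured by log2(CPM + 0.5) minus the mean of the row over the libraries; red is above and blue below that mean, clipped at ±2.5. The bIP columns are red over most INSM1 rows up to 84.1 kb, the aRG columns over the rows at 123.4 and 129.9 kb, and the N columns over the PPP1R17 rows at 71.3, 88.9 and 97.7 kb.

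Between the 2 kinds of radial glia no member region passed, and none of all 200931 regions did (0% in both directions), so the background is empty as well. At an unadjusted p under 0.05 there were 2 of the 66, beside 8197 of all 200931 regions. In the main edgeR fit the smallest adjusted p of a member was 0.99. DESeq2 called 7 of all regions and none of the 66. With only 2 bRG libraries the intervals were wide: those of 7 of 8 promoter regions and 30 of 58 distal regions stayed within a 2-fold difference in either direction. For the INSM1 promoter the difference of bRG from aRG was log2 −0.49 with an interval of −1.08 to 0.10, and for the PPP1R17 promoter 0.17 with an interval of −0.37 to 0.72. A difference of that size could not be detected here, and these values do not show that the types are alike.

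Other neurogenic genes were examined for comparison. Of 20 genes known from intermediate progenitors and newborn neurons, 15 had a promoter region of their own in the table. Of these 15, 8 were higher and none lower in bIP than in aRG, where 4.85% of the protein-coding genes were higher and 16.2% lower, and none was higher and 11 were lower in N than in bIP, against 7.76% and 18.9%. DLL3, a Notch ligand of neurogenic progenitors, stood at 43.9 ± 7.08 CPM in bIP (SD, n = 5), against 9.30 ± 0.342 in aRG (n = 3) and 16.6 ± 4.33 in N (n = 4), a rise of log2 2.25 ± 0.21 (adjusted p = 5.1e-09) followed by a fall of −1.39 ± 0.18 (adjusted p = 4e-07). TAC3, which encodes a neuropeptide precursor, rose by 2.69 ± 0.22 (adjusted p = 1.2e-09) and fell by −0.98 ± 0.18 (adjusted p = 3.8e-05; −0.65, adjusted p = 0.0022, with the loess offset). NHLH1, a basic helix-loop-helix factor of newborn neurons, rose by 3.27 ± 0.25 (adjusted p = 7.3e-10), and SRRM4, a regulator of neuronal splicing, by 1.86 ± 0.19 (adjusted p = 2e-08). Their lower levels in N than in bIP (−0.53 ± 0.19 and −0.45 ± 0.16) missed the threshold without bIP replicate 5 (adjusted p = 0.051 for NHLH1 and 0.058 for SRRM4), and that of NHLH1 also without bIP replicate 1 (adjusted p = 0.06), N replicate 3 (adjusted p = 0.07) or N replicate 4 (adjusted p = 0.06). With the loess offset that of NHLH1 was −0.13 (adjusted p = 0.46), among regions with at least 10 CPM in 2 libraries −0.26 (adjusted p = 0.14), while that of SRRM4 was −0.15 (adjusted p = 0.031) and −0.17 (adjusted p = 0.023), and −0.42 (adjusted p = 0.097) in a fit of the 2 groups alone. In the first series alone they were −0.23 (adjusted p = 0.27) and −0.16 (adjusted p = 0.44), in the second −0.90 (adjusted p = 0.0068) and −0.79 (adjusted p = 0.018), and with the closest pairs summed −0.55 (adjusted p = 0.05) and −0.49 (adjusted p = 0.051). Among the member promoters the largest rise in this comparison was 1.02, for PPP1R17.

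Relatives and partners of the members moved in no common direction. Of 26 such genes, among them the somatostatin genes and other receptors, other RGS, BTG and GADD45 genes, and cofactors of INSM1, 18 had a promoter region. In bIP against aRG 4 of the 18 were higher and 3 lower, where 4.85% of the protein-coding genes were higher and 16.2% lower. The median log2 difference was −0.07, against −0.18 over all promoters of protein-coding genes. In N against bIP 4 were higher and 6 lower, against 7.76% and 18.9%. RGS8, the gene next to RGS16 in the RefSeq table and of the same family, rose in bIP against aRG by log2 0.77 ± 0.17 (adjusted p = 0.00056; 13.1 ± 2.74 CPM in aRG and 21.7 ± 3.81 in bIP) and fell in N by −1.07 ± 0.16 (adjusted p = 2.6e-06; −0.66, adjusted p = 4.8e-05, with the loess offset), where the RGS16 promoter differed by −0.06 in the first of these comparisons. SMOC2, the paralog of SMOC1, was lower in bIP than in aRG by −0.61 ± 0.20 (adjusted p = 0.013; −0.59, adjusted p = 0.054, without aRG replicate 3, and −0.58, adjusted p = 0.28, in the second series alone) and higher in N than in bIP by 1.31 ± 0.18 (adjusted p = 9.3e-07). FBN1, which encodes fibrillin of the elastic fibres, fell in bIP against aRG by −1.06 ± 0.18 (adjusted p = 2.1e-05), and CORT, a somatostatin-like peptide, rose in N against bIP by 1.06 ± 0.20 (adjusted p = 5.9e-05).

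Promoters with the most similar course over the 14 libraries were sought among 10098 other protein-coding promoters, by Pearson's r of log2 CPM, as a description only, since libraries share depth and series. For INSM1 they were MYH3 and GRIA2 (r = 0.923 each) and ALKBH8 (0.911). PPP1R17 was most like STOM (0.941), ENTHD1 (0.936) and TMEM95 (0.932), of which ENTHD1 stood at 8.52 ± 1.47 CPM in bIP (SD, n = 5) and at 0.787 ± 0.204 in N (n = 4). GADD45G was most like ZNF292 (0.973), TRAF4 (0.972) and WWP1 (0.965), RGS16 like GPX1 (0.985), ERICH6 (0.975) and GSN (0.969), and SMOC1 like UNC5A (0.969), PHACTR3 (0.965) and SFXN3 (0.964). MFAP4 was most like HTR3A (0.972), FYB2 (0.968) and CDKN2B (0.964), and the larger TMEM158 region like KAT6A (0.974), TSPAN14 (0.972) and PRSS23 (0.971). No member was among the nearest 3 of another.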

How the data were processed

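The authors deposited 1 table of whole-number read counts per region for the 14 libraries, not normalized, and 1 consensus narrowPeak set per cell type; per the file headers the table names each region in gorGor6 and lists a closest gene with a distance (other annotation). The tools named per the submitters' processing notes are MACS2 and bcl2fastq 2.20.0. Not given in the sources used here are the aligner, the counter, any shift of reads and the point from which the listed distance is counted, taken here as the gene's start. In the peak sets the authors' deposited score was not used, the deposited fold enrichment (ratio) is quoted for single peaks, and the deposited −log10 q-value served as a stricter limit (at least 10). Peak starts equalled region starts in 16970 regions for bIP, so both share coordinates.

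Rows without a gorilla position (13823 of 218080, all counts 0) and 8 repeats were dropped. The test on the counts was that of edgeR 4.0.16 (R 4.3.3, TMM scaling, filterByExpr, quasi-likelihood, 1 mean per cell type plus a term for the library series, all 14 libraries, 9 residual degrees of freedom; Benjamini-Hochberg over all 200931 regions tested, threshold 0.05); the code was tested on simulated data. Log2 differences come from this model. Levels are CPM with TMM factors. The alternatives were DESeq2 1.42.0, other scalings and filters, single series, single libraries left out, a replicate block and, added after the data were seen, the closest pairs of libraries summed. Replicates aRG 1 and 2 and bIP 1 and 2 differed little beyond sampling noise (chi-square per degree of freedom 1.07 and 1.11). The 2 bRG libraries came next at 1.44 and were not summed, and the other pairs ran from 2.47 to 11.

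The members, the gene lists and the rule for naming regions were chosen with earlier results of these data known. Named were all promoter regions, per gene the 2 distal regions of highest mean level and the 2 of smallest p in bIP against aRG or N against bIP, per gene list the 4 genes of smallest p, and the 3 promoters most like each member; a region or gene added to these is said to be so. All 9 symbols matched RefSeq's gene list for a different gorilla assembly, used for neighbours and gene type only. Sequences and motifs were not analysed here.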

Additional observations from a re-analysis of the deposited data

Results flagged for a closer look

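In 46 groups of 4 or 5 libraries (bIP and N over 23 named regions), 3 had 1 library far from the others; chance alone does so in about 1 group in 20. At the PPP1R17 promoter bIP replicate 5 stood at 13.9 CPM and the other bIP libraries at 9.28 to 10.1. At the GADD45G region 1565 bp away the same library stood at 26.3 CPM and the others at 15.3 to 18.4. At the INSM1 region 129929 bp away bIP replicate 3, the library with the lowest total count (12834983), stood at 15.8 CPM and the others at 26.4 to 30.6.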

How the results depend on the processing

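Of 172 tests on named regions and genes, 105 passed; 71 of these passed under every alternative that could be run, 34 missed the threshold in at least 1, and 11 did so when 1 library was left out. Calls reversed in 2: with the replicate block the INSM1 region at 123377 bp was higher in bIP than in bRG by 0.17 (adjusted p = 0.92), and with the loess offset the GADD45G promoter differed by 0.01 in N against aRG (adjusted p = 0.85).

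Requiring 10 CPM in 2 libraries left 44039 regions and 28 members to test; 30863 regions and 22 members then passed in bIP against aRG, 25988 and 18 in bIP against bRG, 29999 and 22 in N against bIP, 33911 and 26 in N against aRG, and 32008 and 23 in N against bRG. The second series alone gave 49481 regions and 20 members in bIP against aRG, from fewer libraries. The labels do not say whether equal replicate numbers pair the libraries. Over 16 same-numbered pairs r ran from −0.23 to 0.27 (7 above 0.1), and 3 of 14 libraries correlated best with their own number. Some of these pairs cross the 2 series, so r cannot decide whether the numbers pair the libraries. The replicate block gave 5899 regions and 6 members in bIP against bRG and 44832 and 20 in N against bRG. Both bRG libraries are of the second series, while the other libraries numbered 1 and 2 are of the first, and the cause was not tested. Calls lost with the block in bIP against bRG included the INSM1, PPP1R17 and SMOC1 promoters (adjusted p = 0.17, 0.56 and 0.44). Those of the SSTR2 region and the smaller TMEM158 region were lost too (adjusted p = 0.35 and 0.86). Between bRG and aRG, 1125 regions passed with the 2 groups alone, 11 without aRG replicate 3 and 7 with DESeq2.

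Leaving out 1 library at a time gave 76040 to 88608 regions and 34 to 42 members in bIP against aRG, 49865 to 73148 and 21 to 31 in bIP against bRG (21 without bRG replicate 2), 100980 to 115689 and 45 to 51 in N against bIP, 121795 to 136823 and 47 to 50 in N against aRG, 94926 to 121694 and 35 to 42 in N against bRG, and 0 to 11 and 0 in bRG against aRG. With the closest pairs summed, added after the data were seen, the INSM1 and SMOC1 promoters missed the threshold in bIP against aRG (adjusted p = 0.063 and 0.069).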
